A study of Mus musculus with 9 samples.

Results

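The genes described here encode the receptor for interleukin-2 (IL-2), the other receptors that share its common gamma chain, and the kinases JAK1 and JAK3 that signal from them. They were taken by symbol, as Il2ra, Il2rb, Il2rg, Il7r, Il4ra, Il21r, Il15ra, Jak1 and Jak3, and all 9 were found among the 23420 genes of the expression table. They were followed in regulatory T cells (Tregs), the CD4 T cells that express the transcription factor Foxp3 and restrain immune responses, in mice with collagen-induced arthritis, in which immunization with collagen leads to joint inflammation. Of 9 libraries, 3 held synovial Tregs of arthritic mice, 3 held Tregs of the lymph nodes draining the arthritic joints of those mice, and 3 held Tregs of the draining nodes of untreated control mice. Every mouse was wild type (WT in the labels) and Tregs were sorted from digested paws or nodes by the YFP of a Foxp3 reporter; the labels give no age or strain. By their titles, the synovial and the arthritic node libraries share mouse numbers, so both tissues were taken to come from the same 3 animals. Arthritic and control nodes came from different animals.

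IL-2, IL-4, IL-7, IL-9, IL-15 and IL-21 each bind a receptor that contains the common gamma chain, the product of Il2rg, beside a chain of its own. The IL-2 receptor is assembled from the alpha chain CD25 (Il2ra), which raises the affinity for IL-2 without signalling, the beta chain (Il2rb), which is shared with the IL-15 receptor, and the gamma chain. JAK3 is bound by the gamma chain and JAK1 by the signalling chain that pairs with it, and both phosphorylate STAT proteins, chiefly STAT5 downstream of IL-2, IL-7 and IL-15, STAT6 downstream of IL-4 and STAT3 downstream of IL-21. Tregs hold high CD25, make little IL-2 of their own and depend on IL-2 from other cells for survival.

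Libraries held 11300406 to 12855435 reads assigned to genes, and log2 values of replicates had correlations across genes of 0.910 to 0.946. Values are normalized read counts, that is reads divided by a size factor per library, so 3 reads correspond to 2.61 to 3.52. Each member had at least 130 reads in every library. Foxp3 was read in every library, at 413 to 538 in synovium, 222 to 294 in nodes of arthritic mice and 170 to 404 in control nodes, and Cd3e, a chain of the T cell receptor complex, averaged 11010.1 ± 1399, 11035 ± 607 and 10873 ± 530.2 in the same order (SD, n = 3). Summed over 7 T cell and Treg markers, synovial libraries held 80082 to 86922, arthritic nodes 60052 to 66809 and control nodes 60088 to 63357. Markers of other cells summed to far less. Fibroblast markers summed to 122, 106 and 2501 in synovial libraries 1, 2 and 3, against 1.74 to 200.9 in arthritic nodes and 7.03 to 37.4 in control nodes. Dendritic cell markers summed to 918 to 1078 in synovium, against 27.8 to 82.1 in arthritic nodes and 38.1 to 62.1 in control nodes, with Itgax and Clec9a at 0 in synovium. Flt3 and Cd209a reached at most 9.92 and 18.7 there, so nearly all of the synovial sum came from Zbtb46, Xcr1 and Siglech. Only 2 of the 7 markers averaged at least 10 over the libraries. Sums were 407 to 835 in synovium, against 30.8 to 128 in arthritic nodes and 77.3 to 109 in control nodes, for mast cell markers. Nearly all of the synovial sum was Kit (mean 587, against 39.1 and 49.6). Cpa3 was lower in synovium (mean 6.34, against 29.0 and 39.8), and Mcpt4, Cma1, Fcer1a and Ms4a2 were at 0 there. Macrophage markers summed to 79.8 to 314 in synovium, against 31.8 to 532 and 73.1 to 367. Of these, Cd14 was higher in synovium (mean 111, against 4.95 and 0). Lyz2 was lower (mean 20.8, against 169 and 199.6), as were C1qa and C1qb, and Mertk and Fcgr1 were at 0. B cell markers summed to 202 to 364 in synovium, against 410 to 637 in arthritic and 442 to 497 in control nodes, CD8 T and NK cell markers to 166 to 253 against 150.4 to 360 and 104 to 166 (Cd8a and Ncr1 at 0 in synovium), and neutrophil markers stayed at or below 52.8 in every library. Genes that respond to dissociation and stress summed to 89691 to 146187 in synovium, against 10935 to 15303 in arthritic nodes and 10637 to 13996 in control nodes. Their part in the differences below was not tested, and in bulk RNA fewer cells of a kind and less RNA per cell cannot be told apart.

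The members lie on 6 chromosomes, and 4 of them form neighbouring pairs (GRCm38 positions, GENCODE vM21). Il2ra lies on chromosome 2 from 11642807 to 11693193 and Il15ra from 11705290 to 11734317 on the same plus strand, 12096 bases further on. Il4ra (chromosome 7, 125552120 to 125579474) and Il21r (125603429 to 125633570) are 23954 bases apart on the plus strand, and no other gene of the expression table lies between the genes of either pair. Il7r (9505788 to 9530176) and Il2rb (78479256 to 78495271) lie on the minus strand of chromosome 15, Il2rg on the minus strand of X (101264378 to 101268255), Jak1 on the minus strand of chromosome 4 (101152367 to 101265282) and Jak3 on the plus strand of chromosome 8 (71676296 to 71690575). Exons of Il2rg share 30.5% of their bases with Gm20489 on the same strand, those of Il4ra 9.51% with Gm44876 on the other strand, and those of Jak3 7.55% with Insl3 on the same strand. Reads in the shared bases cannot be assigned with certainty, though Insl3 itself stood at 2.61 to 13.1 in all libraries.

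Promoter sequences, 250 bases before to 50 after the annotated start, were taken from RefSeq on GRCm38.p6 and matched 8 of the 9 genes. Il2rb had no entry, so its promoter was not searched for motifs. The 4 printed belong to receptor chains that were higher in synovial Tregs (below) and hold, in capitals, a match to a motif of a factor family known from T cell receptor or cytokine signalling. The Il2ra promoter is chr2:11642542-11642841 and the Il7r promoter is chr15:9529827-9530126, on the plus and the minus strand. The Il4ra promoter is chr7:125552021-125552320 and the Il21r promoter is chr7:125603179-125603478, both on the plus strand. All are written 5′ to 3′ along the gene's strand.
Il2ra: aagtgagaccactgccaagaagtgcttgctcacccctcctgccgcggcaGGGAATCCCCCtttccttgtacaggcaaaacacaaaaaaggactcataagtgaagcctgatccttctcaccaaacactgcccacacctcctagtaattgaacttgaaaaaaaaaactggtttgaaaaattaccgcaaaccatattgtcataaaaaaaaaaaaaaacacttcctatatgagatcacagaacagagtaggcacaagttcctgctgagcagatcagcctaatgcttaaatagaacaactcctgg
Il7r: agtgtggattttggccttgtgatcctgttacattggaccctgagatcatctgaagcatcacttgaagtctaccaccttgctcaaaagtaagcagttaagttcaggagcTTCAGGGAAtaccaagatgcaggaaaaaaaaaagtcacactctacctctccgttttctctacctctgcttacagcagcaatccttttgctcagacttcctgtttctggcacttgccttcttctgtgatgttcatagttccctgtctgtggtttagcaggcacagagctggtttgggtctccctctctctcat
Il4ra: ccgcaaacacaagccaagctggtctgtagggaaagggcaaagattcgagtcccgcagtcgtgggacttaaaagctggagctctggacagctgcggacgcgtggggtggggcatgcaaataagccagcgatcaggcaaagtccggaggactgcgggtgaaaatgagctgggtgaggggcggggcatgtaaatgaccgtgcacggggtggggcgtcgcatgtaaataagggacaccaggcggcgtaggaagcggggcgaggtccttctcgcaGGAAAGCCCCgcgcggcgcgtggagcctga
Il21r: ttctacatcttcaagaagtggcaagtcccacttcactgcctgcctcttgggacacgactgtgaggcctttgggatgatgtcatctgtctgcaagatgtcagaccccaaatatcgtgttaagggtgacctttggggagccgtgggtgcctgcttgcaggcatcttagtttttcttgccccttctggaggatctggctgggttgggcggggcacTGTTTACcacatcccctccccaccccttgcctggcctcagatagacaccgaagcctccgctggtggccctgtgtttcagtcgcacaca
Motifs were searched on both strands. Counted from 0 at the annotated start, Il2ra holds matches to the NF-kappa B consensus, GGGAATCCCC at -201 on both strands and an overlapping one a base further, and Il4ra holds one, GGAAAGCCCC, at 20 on the minus strand. This consensus is in 8.46% of 32851 promoters of the same length. Il7r holds the STAT motif TTCNNNGAA as TTCAGGGAA at -142, as do 8.3% of promoters. Il21r holds the FOXO motif GTAAACA at -38, read as TGTTTAC on the plus strand, as do 3.65%. The AP-1 motif TGANTCA, in 7.81% of promoters, was found in the later of the annotated starts of Il15ra, as TGAGTCA at -30. The promoters of Il2rg, Jak1, Jak3 and the earlier start of Il15ra held none of the 4 motifs. A match of letters does not show that a factor binds.

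Per kilobase of exon, Il2rg was the most abundant member in all 3 groups, and Il15ra had the lowest mean, though its libraries overlapped those of Jak3 in control nodes, where Jak3 was the lowest by the length of the longest transcript. Il2rg averaged 26763 ± 3549 normalized reads per kilobase in synovium, 15578 ± 411 in nodes of arthritic mice and 15294 ± 1173 in control nodes (SD, n = 3). Il2ra came next in synovium (5977 ± 564 per kilobase), above Il2rb (3243 ± 1172) and Il7r (2785 ± 26.0), whose libraries overlapped each other. Il21r (2342 ± 340.03) and Jak1 (2146 ± 66.2) followed with overlapping libraries, and Il4ra (397 ± 172), Jak3 (150.1 ± 91.1) and Il15ra (50.4 ± 20.9) were the lowest in synovium. In arthritic nodes Jak1 (2125 ± 129 per kilobase) stood second, and its libraries overlapped those of Il2ra (1801 ± 287), which overlapped those of Il2rb (1479 ± 101). In control nodes Il2ra (2478 ± 168 per kilobase) stood above Jak1 (2160.2 ± 31.9) and Il2rb (1476 ± 382) with no overlap. By the length of the longest transcript, however, the control libraries of Il2ra (3208 ± 217 per kilobase) and Jak1 (3182 ± 47.0) overlapped, and control library 1 had Il2ra below Jak1. By either length Il2ra exceeded Jak1 in every synovial library.

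**Figure D1:**
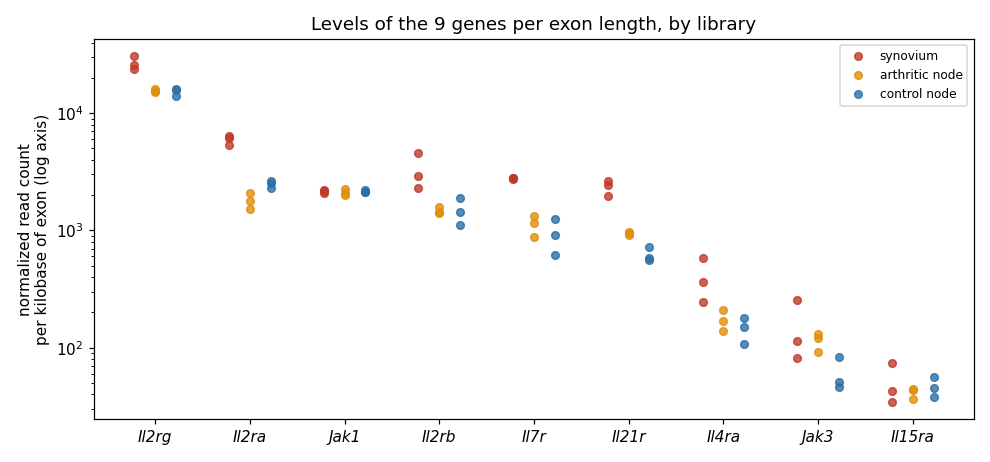
Normalized read count per kilobase of exon (log axis) for each of the 9 genes in synovial (left), arthritic node (middle) and control node (right) Tregs; each point is 1 library. Il2rg tops every group at 13969 to 30637 per kilobase, and Il2ra, Il2rb, Il7r, Il21r and Il4ra stand higher in synovium than in either node group while Jak1 stays within 2011 to 2266.

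The first comparison set synovial Tregs against node Tregs of the same arthritic mice. Of the 9 members, 6 rose in synovium and 0 fell: all receptor chains other than Il15ra passed an adjusted p of 0.05 in limma, and Il15ra, Jak1 and Jak3 did not. Over all 11357 genes tested, 17.9% were called higher and 33.8% changed in either direction. The 6 were also those whose synovial libraries all lay above all arthritic node libraries, against 25.2% of genes tested. The median log2 fold change over the members was 1.07, against -7.25e-05 over all genes tested.

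Il2ra, the CD25 chain, showed the largest difference. Its values were 30554, 36795 and 35057 in synovial Tregs, against 11977, 8708 and 10164 in arthritic node Tregs. The lowest synovial library lay far above the highest node library. The change of Il2ra was 3.34-fold (95% interval 2.77 to 4.01; log2 1.74 ± 0.12 standard error, adjusted p = 6.18e-07). Il2rb, the signalling chain shared with IL-15, was at 12402, 9803 and 19508 in synovium, against 5990.0, 6208 and 6823 in arthritic nodes, and synovial library 3 stood far above the other 2. Its change was 2.11-fold (1.50 to 2.96; log2 1.07 ± 0.23, adjusted p = 0.00291). Without synovial library 3, which also had the highest sums of fibroblast and stress markers, the log2 fold change of Il2rb was 0.80 (adjusted p = 0.0103); over all alternatives its adjusted p ranged from 3.42e-06 to 0.101. Il2rg, the gamma chain used by all receptors of the family, was at 56495, 73130.0 and 62025 in synovium, against 36240, 37119 and 38199 in arthritic nodes, where the libraries lay close together. It rose 1.71-fold (1.45 to 2.01; log2 0.77 ± 0.11, adjusted p = 0.000169), the smallest difference among the chains that passed.

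Il7r, the specific chain of the IL-7 receptor, varied least within synovium. It stood at 13087, 13022 and 12852 in synovial Tregs, against 4114, 6187 and 5389 in arthritic node Tregs, and changed by 2.52-fold (1.83 to 3.47; log2 1.33 ± 0.21, adjusted p = 0.000458). Il21r, the specific chain for IL-21, a cytokine of follicular helper T cells, stood at 8127, 6521 and 8702, against 3009, 3206 and 3188 in arthritic nodes (2.47-fold, 2.02 to 3.01; log2 1.30 ± 0.13, adjusted p = 1.3e-05). Both groups of Il21r values were tight and far apart. Il4ra, which binds IL-4 and, with a partner chain, IL-13, stood at 2177, 1475 and 3505 in synovium, against 838, 1249.8 and 1019 in arthritic nodes. Its synovial libraries spread more than those of Il21r, its neighbour on chromosome 7, and the change was 2.19-fold (1.43 to 3.35; log2 1.13 ± 0.28, adjusted p = 0.00826). Without synovial library 3 the log2 fold change of Il4ra was 0.81 (adjusted p = 0.0351), and those of Il2ra, Il2rg, Il7r and Il21r were 1.72, 0.79, 1.34 and 1.22, all still called; over all alternatives the adjusted p of Il4ra ranged from 0.000154 to 0.0430.

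**Figure D2:**
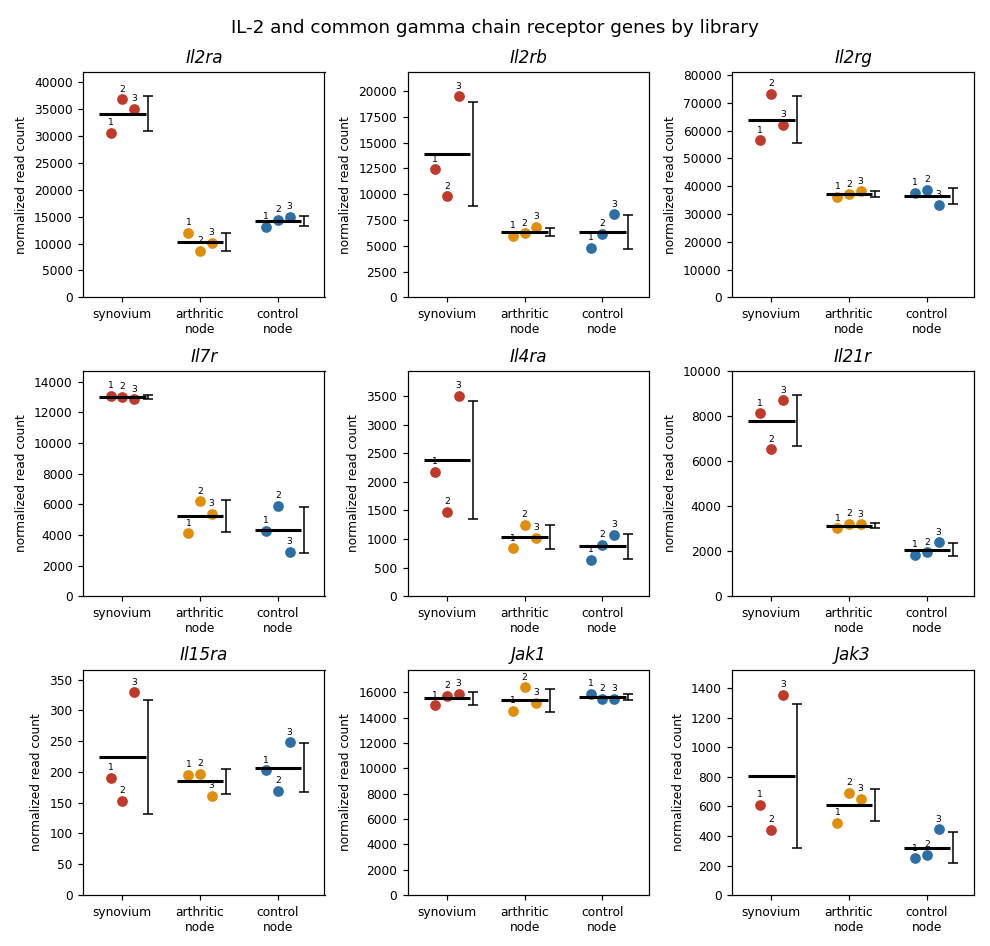
Normalized read count (linear axes from 0) of each member in synovial, arthritic node and control node Tregs; points are libraries numbered by replicate, horizontal bars are means and brackets ± 1 SD (n = 3). The synovial libraries of Il2ra, Il2rb, Il2rg, Il7r, Il4ra and Il21r lie above all node libraries, and synovial library 3 is the highest point for Il2rb, Il4ra, Il21r, Il15ra and Jak3.

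Il15ra, the high-affinity chain for IL-15 that is encoded beside Il2ra, was at 191, 153 and 329 in synovium, against 195, 197 and 162 in arthritic nodes. The groups overlapped, and the fold change of 1.15 had an interval of 0.717 to 1.86 (adjusted p = 0.651). Jak1 was at 14961, 15708 and 15852 in synovial Tregs, against 14537, 16375 and 15164 in arthritic node Tregs, and its fold change of 1.01 had the narrowest interval of the members, 0.890 to 1.15 (adjusted p = 0.913). Jak3 was at 613, 440.3 and 1357 in synovium, against 489.6, 694 and 652 in arthritic nodes, so the groups overlapped and synovial library 3 stood apart (fold change 1.18, 0.689 to 2.03, adjusted p = 0.642). Without synovial library 3 the log2 fold changes of Il15ra, Jak1 and Jak3 were -0.11, -0.0009 and -0.22, and none passed. Under quantile normalization, which moved the median of all genes by -0.12, the log2 fold change of Il2rb was 0.54 and not called (adjusted p = 0.101), and Jak1 fell by 0.50 (adjusted p = 0.00033). The other chains that passed were still called but smaller, with log2 fold changes of 0.31 for Il2rg, 0.83 for Il7r, 0.90 for Il21r, 0.93 for Il4ra and 1.19 for Il2ra. In the authors' deposited table for this comparison the same 6 members had an adjusted p under 0.05, with a log2 fold change of 1.71 for Il2ra and 0.76 for Il2rg.

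The second comparison set node Tregs of arthritic mice against node Tregs of control mice. None of the 9 members passed in limma, where 0.343% of all genes did. Of the members, edgeR called 0 and DESeq2 called 2, but the share of all genes called by either is not given here. In limma 3 members had an unadjusted p under 0.05 (9.08% of all genes). These 3 members were also the ones whose libraries did not overlap between the groups (14.9% of all genes), with Il21r and Jak3 higher in arthritic nodes and Il2ra lower. Il2ra was at 11977, 8708 and 10164 in arthritic nodes, against 13089.9, 14415 and 14954 in control nodes. The log2 fold change of Il2ra was -0.47 ± 0.12, a fold of 0.600 to 0.868 by its 95% interval, with an unadjusted p of 0.00227 and an adjusted p of 0.191. DESeq2 gave it -0.46 with an adjusted p of 0.0294, and over all alternatives the adjusted p ranged from 0.0294 to 0.631.

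Il21r was at 3009, 3206 and 3188 in arthritic nodes, against 1843, 1942 and 2394 in control nodes. Its log2 fold change was 0.61 ± 0.13 (fold interval 1.26 to 1.87, unadjusted p = 0.000518, adjusted p = 0.0996). It was called by DESeq2 (adjusted p = 0.00345), with weights per library (adjusted p = 0.0375) and without control library 3 (0.73, adjusted p = 0.0356), and over all alternatives its adjusted p ranged from 0.00345 to 0.444. Jak3 was at 489.6, 694 and 652 in arthritic nodes, against 248, 273 and 446 in control nodes, and its log2 fold change of 0.96 ± 0.36 had a fold interval of 1.13 to 3.33 (unadjusted p = 0.0202, adjusted p = 0.446). Libraries of the other 6 members overlapped between the node groups. Il2rb averaged 6340.3 ± 432 in arthritic nodes and 6329.7 ± 1638 in control nodes, and Il2rg averaged 37186 ± 981 and 36507 ± 2800.6. Il7r averaged 5230.2 ± 1046 in arthritic nodes and 4339 ± 1506 in control nodes, Il4ra 1036 ± 206 and 872 ± 219.5, Il15ra 184.5 ± 19.9 and 207 ± 39.5, and Jak1 15359 ± 935 and 15611 ± 230.6.

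**Figure D3:**
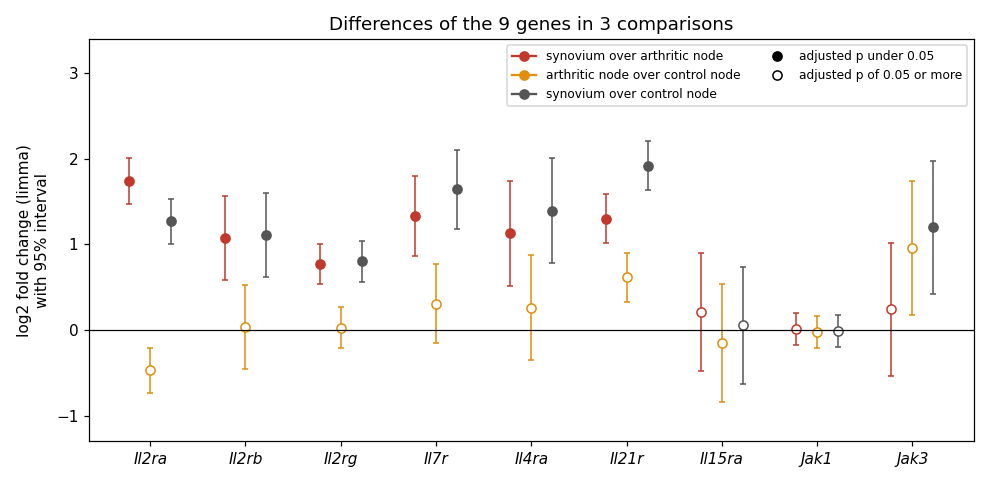
Log2 fold change (limma, bars 95% intervals) of each member in synovium over arthritic node, arthritic node over control node, and synovium over control node; filled points have an adjusted p under 0.05. The receptor chains other than Il15ra lie at 0.77 to 1.92 in both synovial comparisons, Il2ra lies at -0.47 and Il21r at 0.61 between the nodes with open points, and Jak1 lies between -0.03 and 0.02 (-0.50 and called under quantile normalization in both synovial comparisons).

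Synovial Tregs of arthritic mice were also set against node Tregs of control mice, which differ in both tissue and disease. Here 7 of the 9 members rose and 0 fell, where 21.6% of all genes were called higher and 40.1% changed. This comparison shares the synovial libraries with the first and the control libraries with the second, so its results are not independent of theirs. Il21r showed the largest log2 fold change, 1.92 ± 0.14 (adjusted p = 3.74e-07), with a mean of 7784 ± 1130.2 in synovium and 2059.5 ± 294 in control nodes. Il7r was higher by 1.64 (adjusted p = 7.4e-05), Il4ra by 1.39 (adjusted p = 0.00194), Il2ra by 1.27 (adjusted p = 6.44e-06), Il2rb by 1.11 (adjusted p = 0.00199) and Il2rg by 0.80 (adjusted p = 9.81e-05). By group means, Il21r was highest in synovium, intermediate in arthritic nodes and lowest in control nodes, whereas Il2ra was lowest in arthritic nodes. Neither difference between the node groups passed in limma (adjusted p = 0.0996 for Il21r and 0.191 for Il2ra). The libraries of these 6 chains did not overlap between synovium and control nodes, as for 26.2% of all genes in this direction.

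Jak3 was the member that passed only here, at 613, 440.3 and 1357 in synovium, against 248, 273 and 446 in control nodes. The libraries overlapped, and the log2 fold change was 1.20 ± 0.36 (adjusted p = 0.0186). Jak3 lost its call in 5 of 22 alternatives, including the threshold of 0.01. Among the 5 were the fits without synovial library 3 (0.74, adjusted p = 0.0696), without control library 1 (1.04, adjusted p = 0.0673) and without control library 2 (1.10, adjusted p = 0.0590). Over all alternatives the adjusted p-values were 0.00174 to 0.0696. Il15ra (0.06, adjusted p = 0.910) and Jak1 (-0.01, adjusted p = 0.940) did not pass. Under quantile normalization, which moved the median of all genes by -0.13 in this comparison, Il2rb was not called (0.57, adjusted p = 0.0766), Jak1 fell by 0.50 (adjusted p = 0.000256), and Il2rg and Il2ra were called at 0.35 and 0.71.

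Ratios between chains within a library do not depend on its size factor, and were taken per kilobase of exon. Il2ra over Il2rg, the alpha against the gamma chain, was -2.15, -2.25 and -2.08 on the log2 scale in synovium, -2.86, -3.35 and -3.17 in nodes of arthritic mice and -2.78, -2.68 and -2.42 in control nodes. The groups did not overlap in any of the 3 comparisons: the ratio was highest in synovium and lowest in arthritic nodes. The differences were 0.97 for synovium minus arthritic nodes, -0.50 for arthritic minus control nodes and 0.47 for synovium minus control nodes, each with an exact two-sided permutation p of 0.1, the smallest that 3 against 3 libraries allow (0.24 after adjustment over 12 comparisons of ratios). These permutations treated all libraries as independent. The pairing of synovium and arthritic nodes by mouse was ignored, and ratios were not tested with it. Il2ra over Il15ra, its neighbour on chromosome 2, differed by 1.53 between synovium and arthritic nodes and by 1.21 between synovium and control nodes (exact permutation p = 0.1 for each). Il2ra over Il2rb differed by 0.66 between synovium and arthritic nodes and by -0.50 between arthritic and control nodes, and its libraries overlapped in both (exact permutation p = 0.2 for each). Il2ra over Il7r overlapped between all groups, with differences of 0.41, -0.78 and -0.37 in the 3 comparisons (exact permutation p = 0.4, 0.2 and 0.4).

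**Figure D4:**
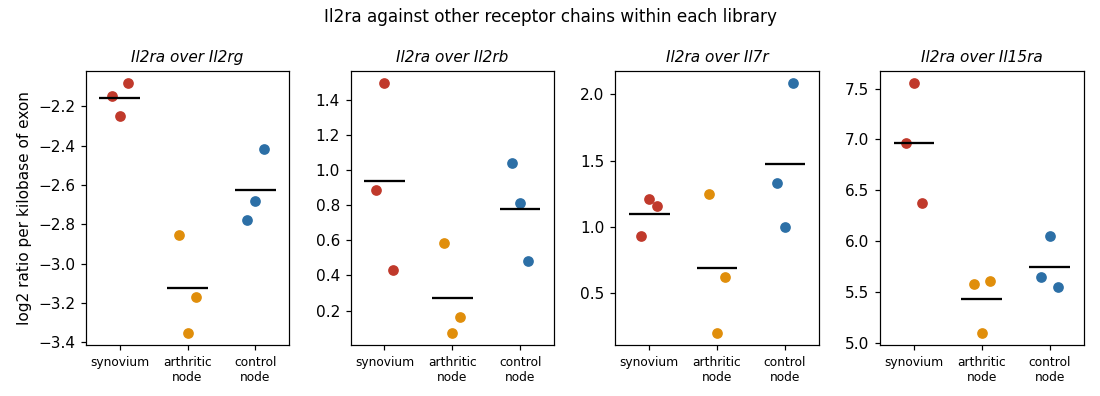
Log2 ratio per kilobase of exon of Il2ra over Il2rg, Il2rb, Il7r and Il15ra within each library (points) of synovial, arthritic node and control node Tregs, with group means (bars). For Il2ra over Il2rg the groups are separate, at -2.25 to -2.08 in synovium, -3.35 to -2.86 in nodes of arthritic mice and -2.78 to -2.42 in control nodes; for Il2rb and Il7r they overlap.

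Other genes of the pathway were described in 7 lists with 50 distinct genes, of which 43 passed the filter on low values. In synovial over arthritic node Tregs 14 rose, 8 fell and 21 did not pass, with a median log2 fold change of 0.36; over all genes tested, 17.9% rose and 33.8% changed in either direction. Among the cytokines, little RNA was read: Il9 and Tslp were at 0 in every library, and Il4, Il7 and Il15 were under the filter with means of at most 11.5. Il2 averaged 10.9 ± 1.39 in synovium, 20.4 ± 15.6 in nodes of arthritic mice and 17.6 ± 18.4 in control nodes and did not pass in any comparison, nor did Il21 (11.4 ± 7.45, 17.7 ± 21.6 and 29.9 ± 33.6). Il13, a ligand of the IL-4 receptor chain, was at 46.3, 4.70 and 62.9 in synovium and at 0 in all arthritic node libraries, a mean at least 14.0-fold higher against a floor of 3 reads per library (adjusted p = 0.0135), and was not called without synovial library 1 (adjusted p = 0.0577). The partner chains Il9r, Crlf2 (the TSLP receptor chain) and Il13ra1 did not pass in any comparison, with log2 fold changes of 0.71, 0.57 and -0.47 in synovium over arthritic nodes, and Il13ra2 was at 0 throughout.

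Of 6 other JAK and STAT genes 4 rose in synovium over arthritic nodes, where 17.9% of all genes did, and 0 fell. Jak2, a kinase used mainly by receptors outside this family, was at 4193, 4859 and 5657 in synovium, against 594, 470.5 and 535 in arthritic nodes (log2 fold change 3.19 ± 0.15, adjusted p = 2.56e-08). Stat3, which transmits the signals of IL-21 and IL-6, averaged 34557 ± 9503 in synovium and 6265 ± 454 in arthritic nodes (2.43 ± 0.16, adjusted p = 2.75e-07). Both STAT5 genes rose, Stat5a by 1.96 ± 0.21 and Stat5b by 1.15 ± 0.13. Tyk2 (0.48) and Stat6 (0.12) did not pass. Thus among the JAK genes Jak2 was called and Jak1, Jak3 and Tyk2 were not, a contrast in outcome whose difference was not itself tested.

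Of 7 feedback inhibitors 4 rose and 2 fell, where 33.8% of all genes changed. Cish, a STAT5 target that dampens the IL-2 receptor, stood at 3993, 3418 and 5556 in synovium, against 1578, 1426 and 1552 in arthritic nodes (1.48 ± 0.16, adjusted p = 2.24e-05). The phosphatase gene Ptpn2 rose by 0.73 ± 0.12, Socs2 by 0.49 ± 0.15 and Socs3 by 0.90 ± 0.27, the last 2 each with an adjusted p of 0.0215 and neither called under quantile normalization (0.34 and 0.67) or without synovial library 3 (0.45 and 0.64). Leaving out synovial library 1 or arthritic node library 2 also ended the call of Socs2 (adjusted p = 0.0627 and 0.0920), and leaving out arthritic node library 1 that of Socs3 (adjusted p = 0.0969). A limma fit without the variance trend ended both calls (adjusted p = 0.0509 for Socs2 and 0.0737 for Socs3). Ptpn6, which encodes the phosphatase SHP-1, averaged 533 ± 163 in synovium and 3671 ± 328 in arthritic nodes, and its log2 value fell by 2.82 (SE 0.18, adjusted p = 2.75e-07). Sh2b3 fell by 1.40 (SE 0.47, adjusted p = 0.0366) and lost its call in the fit blocked by mouse (adjusted p = 0.0527) and with any of the synovial or arthritic node libraries left out. Its call was also lost without the filter on low values (adjusted p = 0.0652). Socs1, a direct inhibitor of JAK1, did not pass (-0.27, adjusted p = 0.176) but fell under quantile normalization (-0.49, adjusted p = 0.0267).

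Of 10 genes of STAT5 response and survival 2 rose, near the 17.9% of all genes, and 4 fell, with a median log2 fold change of -0.23. Among all 11357 genes tested 1810 fell, and 33.8% changed in either direction. The kinase gene Pim1 averaged 1931 ± 322 in synovium and 408.5 ± 39.8 in arthritic nodes (2.23 ± 0.19, adjusted p = 2.92e-06), and Bcl2l1, which encodes the survival protein BCL-XL, averaged 4612 ± 405 and 480.2 ± 129.9 (3.30 ± 0.29, adjusted p = 3.83e-06). Bcl2, its relative, was at 548, 619 and 633 in synovium, against 5446, 5703 and 5376 in arthritic nodes (adjusted p = 3.20e-09), the opposite direction to Bcl2l1. The cyclin genes Ccnd2 and Ccnd3 fell by 0.35 and 1.21 and Myc fell by 0.75 (adjusted p = 0.0200, 0.00019 and 0.00255), and Ccnd2 lost its call without synovial library 3 (adjusted p = 0.0682) or without arthritic node libraries 1 or 2. Nor was Ccnd2 called by limma without the variance trend (adjusted p = 0.0892). Foxp3 did not pass (0.79, adjusted p = 0.0597) but was called in the fit blocked by mouse (adjusted p = 0.0232), with only both groups compared (0.0184), with weights per library (0.0310), by DESeq2 (0.0464) and without control library 2 (0.0379) or 3 (0.0215). Of 7 adaptor and PI3K genes the adaptor Grb2 rose by 1.35 ± 0.18 and Pik3cd, the lymphocyte PI3K catalytic subunit, fell by 1.53 (SE 0.14). The other 5 did not pass, so the share called was close to the 33.8% of all genes. Of 7 transcription factors known to bear on these receptor genes 2 rose and 1 fell, where 33.8% of all genes changed. Rel rose by 3.93 ± 0.15 and Runx1 by 0.65 ± 0.16, Foxp1 fell by 1.17 (SE 0.15), and Foxo1 (0.39), an activator of Il7r, did not pass.

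**Figure D5:**
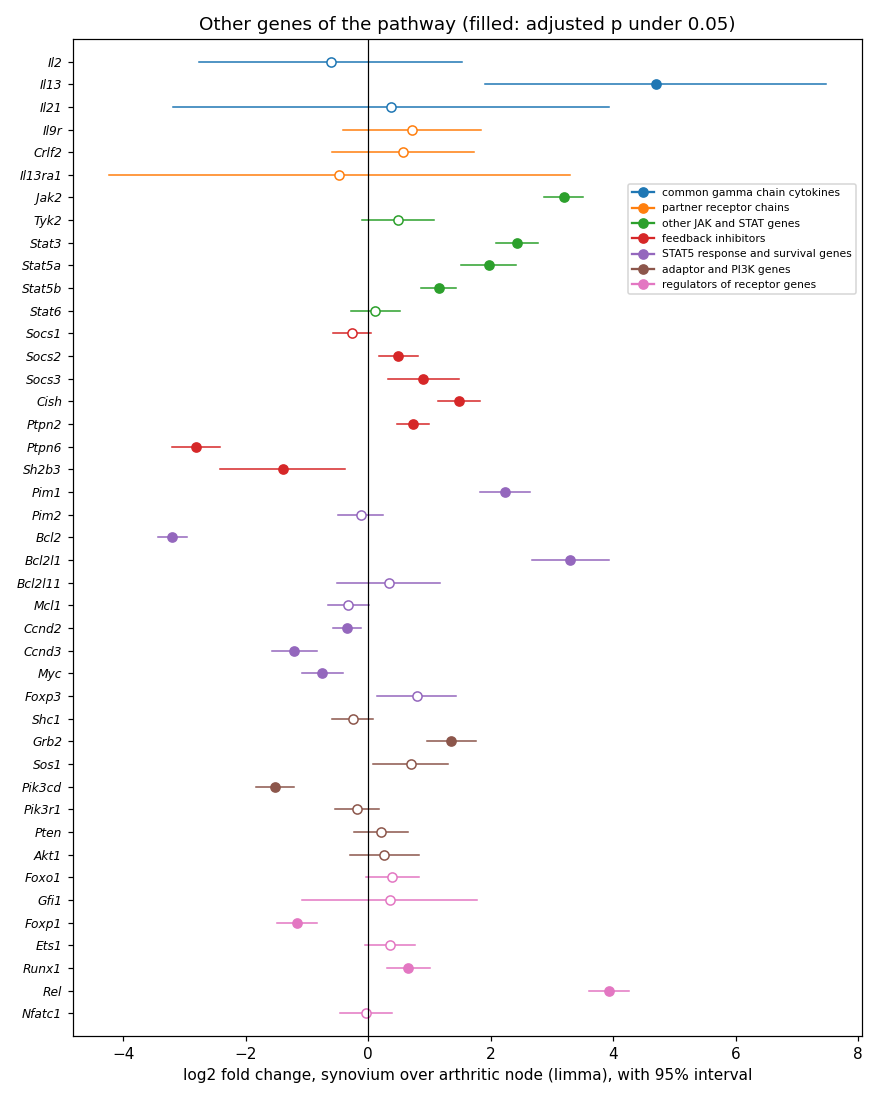
Log2 fold change (limma, bars 95% intervals) in synovial over arthritic node Tregs for the 43 other pathway genes tested, coloured by list; filled points have an adjusted p under 0.05. Il13, Rel, Bcl2l1 and Jak2 lie above 3 and Bcl2 and Ptpn6 below -2.8, and the wide bars of Il13, Il21 and Il13ra1 belong to genes with few reads.

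Between the node groups 2 of the 43 passed, where 0.343% of all genes did, and both calls were lost under several alternatives. Socs3, an inhibitor of STAT3 signals, was at 1091, 1590 and 1700 in arthritic nodes, against 219.8, 412 and 292 in control nodes (log2 fold change 2.26 ± 0.27, adjusted p = 0.0118), and was not called without arthritic node library 2 (adjusted p = 0.0825) or 3 (adjusted p = 0.0622). Bcl2 averaged 5508 ± 172 in arthritic nodes and 8464 ± 699 in control nodes (-0.62 ± 0.11, adjusted p = 0.0278), with no overlap, and was not called with any 1 of the 6 node libraries left out (adjusted p of 0.0546 to 0.152). With the mouse number as a block neither was called, although numbers of arthritic and control mice share no animal. In synovium over control nodes 14 of the 43 rose and 9 fell, where 21.6% of all genes rose and 40.1% changed.

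The genes whose pattern was most like that of Il2ra, by the root mean square difference of centred log2 values over the 9 libraries, were Ldlrad4 (0.154), Hemk1 (0.190), H3f3b (0.204), Hist1h2bc (0.205) and Cd81 (0.207). The median over 8976 candidate genes was 0.843. Cd81, a tetraspanin of the cell surface, averaged 9614 in synovium, 2945 in nodes of arthritic mice and 3246 in control nodes. Most like Il2rb were Tfrc (0.129), Fnbp1 (0.156), Sipa1l1 (0.157), Slc2a1 (0.161) and Il10ra (0.166), with a median over candidates of 0.713. Tfrc, the transferrin receptor gene, averaged 1370 in synovium, 631 in nodes of arthritic mice and 639 in control nodes, and Slc2a1, which encodes the glucose transporter GLUT1, averaged 1802, 786 and 826. Among the members the closest pair was Il2rb and Il4ra (0.195), both of which were highest in synovial library 3, and the farthest was Il2ra and Jak3 (0.849).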

How the data were processed

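RNA of sorted mouse Tregs was sequenced in 9 libraries, after Trizol extraction and a directional library kit per the labels' protocols. HISAT2, HTSeq, DESeq2 and the mm10 genome are named in the submitters' processing notes; no version, annotation or strand setting is given in the sources used here. The authors deposited a normalized signal per gene, which is the read count divided by a size factor: in each library 100% of nonzero values were whole multiples of a constant within 0.01. The authors' deposited table of synovium against arthritic nodes gives means, log2 fold changes with errors, a Wald statistic (a test score) and p-values, per the file headers.

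Genes were tested with limma 3.58.1 in R 4.3.3, using lmFit and eBayes with trended variance, on log2 of the normalized value plus 1, which understates changes of low genes. Genes averaging at least 10 (11357 of 23420) were tested in a fit of all 9 libraries, two-sided, with Benjamini-Hochberg adjustment over all genes and a threshold of 0.05. Ratios were compared with exact permutation tests that treated libraries as independent and did not use the pairing by mouse. Alternatives changed the pseudocount, filter, variance model, scaling, threshold and libraries, and used edgeR 4.0.16 and DESeq2 1.42.0 on the recovered reads. The model was tested on simulated data. Exon lengths came from GENCODE vM21, which matched 21737 of the 23420 symbols. Precision is limited by 3 libraries per group, and floors of 3 reads cover counting error only.

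Synovial and arthritic node libraries with the same number come from the same mouse by their titles. Their residuals correlated by 0.02, 0.05 and 0.09 across genes, the highest value for each synovial library being that with its own number. Like-numbered arthritic and control node libraries, which share no animal, gave 0.005, 0.067 and 0.070, so these correlations cannot show the pairing. Titles number separate mice and say nothing of library preparation, so p-values measure the spread between these samples. All 9 members are named, genes of the lists may be named, and the 5 genes most like Il2ra and the 5 most like Il2rb were named among those with a mean of 50 or more. A gene in each of 2 lists is not reported here and was left out of their counts. Members and lists were chosen with earlier results of these data known.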

Additional observations from a re-analysis of the deposited data

How the results depend on the processing

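In synovium over arthritic nodes 6 members were called with each library left out (6 to 6); in synovium over control nodes it was 6 to 7, and between the nodes 0 to 1. Quantile normalization called 5 members higher and 1 lower in synovium over arthritic nodes, where it called 1711 of all 11357 genes tested higher and 2344 lower. Between the nodes, weights per library called 1 member and DESeq2 called 2. The share of all genes called under either setting is not given here, so such counts show only how the calls moved. Of the other pathway genes, the 2 called between the nodes became 0 without a variance trend, 0 with only the 2 groups compared, 0 with the replicate block, 0 at an adjusted p under 0.01, 5 with DESeq2 and 0 to 2 with each library left out; the counts were 19 to 23 and 20 to 24 in the synovial comparisons with each library left out. Blocking by mouse number (replicate block) called 6, 0 and 7 members in the 3 comparisons and changed no member's call. Only synovium and arthritic nodes share animals, so in the other comparisons the number does not pair samples. The share of higher calls among all genes was 42.2% under quantile normalization, against 52.9%, in synovium over arthritic nodes and 42.1%, against 53.9%, in synovium over control nodes.

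Signs that turned belonged, apart from Jak1 under quantile normalization, to differences that passed in neither fit, and the cause was not tested. In synovium over arthritic nodes the log2 fold change of Jak1 was -0.0087 with weights, -0.0086 with TMM, -0.50 with quantile normalization and -0.025 with edgeR, and with each library left out it was -0.024 to 0.062, that of Il15ra -0.11 to 0.44 and that of Jak3 -0.22 to 0.59. Between the nodes Il2rb was -0.00012 with edgeR and -0.15 to 0.22 with each library left out, Il2rg -0.035 to 0.072 and Jak1 -0.072 to 0.014. In synovium over control nodes Jak1 was -0.026 to 0.016 and Il15ra -0.26 to 0.29 with each library left out. With the longest transcript in place of all exons, 5 of 9 members kept their rank in synovium, 7 in control nodes and 9 in arthritic nodes. Depth limits Il15ra, which had 130 to 293 reads, more than Il2rg with 36523 to 62281.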
